A study of Mus musculus with 6 samples.

Results

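Cytoplasmic ribosomal proteins are the protein components of the large (Rpl) and small (Rps) subunits of the ribosome that works in the cytosol. Each ribosome carries about 1 copy of most of them, and their genes are transcribed at high and coordinated levels in every tissue. The mRNAs of many of these genes begin with a run of C and T bases at their 5′ end, the terminal oligopyrimidine tract, through which their translation follows growth signals. In brain, ribosomes are found in cell bodies and also in dendrites and axons, where local protein synthesis takes place.

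Signals of these genes were taken from 6 Affymetrix MG430 2.0 chips, which carried hippocampal RNA of male Tg2576 mice on a C57BL/6 background. The neuron-specific prion protein promoter drives a human APP transgene with the Swedish double mutation in this line, and every group carried this transgene, so that no group was free of it. The groups, with 2 chips each, were untreated mice of 18 months with high Aβ plaque load (Tg-18mo), mice of 18 months given the angiotensin-converting enzyme inhibitor captopril at 20 mg per kg per day in drinking water for 6 months (Tg-18mo-ACEI, written captopril beside chip values, which always follow the order Tg-18mo, Tg-18mo-ACEI, Tg-12mo), and untreated mice of 12 months with low plaque load (Tg-12mo). Each chip carried the pooled RNA of 4 mice, and the labels call the 2 chips of a group biological replicates. Whether the 2 pools of a group held different mice is not stated. The p-values measure the spread between pools, taken in part from other probe sets, and not the spread between mice. Members were the probe sets annotated with exactly 1 gene symbol, Rpl or Rps followed by a number and at most 1 letter, or Rplp0, Rplp1, Rplp2 or Rpsa. This gave 100 probe sets of 46 genes among the 45037 probe sets that are not controls. Of these, 83 probe sets of 43 genes reached a mean signal of 100 in at least 1 group and were tested, together with 23262 probe sets in all.

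The other 17 member probe sets were under this limit, and Rpl3l, Rpl39l and Rps16 had no probe set above it. Rpl3l, the paralog known from heart and skeletal muscle, had signals from 6.96 to 36.4 on the 6 chips. Just inside the limit, by the highest group mean, lay Rps6 1453466_at at 116, Rpl12 1435655_at at 155 and Rps20 1450417_a_at at 157. Just outside lay Rpl41 1454639_x_at at 80.2, Rps24 1455195_at at 79.7 and Rps10 1436384_at at 62.1. Rps6 1453466_at passed through Tg-12mo alone, with group means of 66.8, 65.9 and 116 in Tg-18mo, Tg-18mo-ACEI and Tg-12mo. A further 110 probe sets carried a ribosomal protein symbol beside another symbol and were not members. Rplp1, Rpl5, Rpl10 and Rps27a had no probe set with a single symbol. Several ribosomal protein genes have processed pseudogenes with almost the same sequence, and 66 of the 83 probe sets tested carried a suffix (_a, _s or _x) that marks probes shared between transcripts or similar sequences, so their signals may include related transcripts.

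Start sequences of the genes are shown because the C and T run is the feature that these mRNAs are known for, and because the rule did not use it. RefSeq start sites (GRCm38.p6) were matched for 40 of the 46 genes. A run of 8 or more C or T bases within 15 bases of an annotated start was present in 18 of these 40 genes (45%), against 13.9% of all 27025 genes with a start in the table. The windows below run from 10 bases before to 15 bases after the start, 5′ to 3′ on the gene's strand, with the run in capitals. Rpl13a lies at chr7:45128731-45128755 on the minus strand, Rpl27a at chr7:109519185-109519209 on the plus strand, Rplp2 at chr7:141447641-141447665 on the plus strand, Rpl35 at chr2:39005117-39005141 on the minus strand and Rps6 at chr4:86857353-86857377 on the minus strand. Rps2 at chr17:24720053-24720077 and Rplp0 at chr5:115559457-115559481, both on the plus strand, are given as genes without such a run in this window.
Rpl13a: cctgcgacaagaCCTCCTCCTTTCC
Rpl27a: cgtgagCTCCTCCCTTTTCCCTTTC
Rplp2: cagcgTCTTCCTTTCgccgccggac
Rpl35: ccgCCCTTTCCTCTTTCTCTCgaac
Rps6: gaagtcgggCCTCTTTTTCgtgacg
Rps2: gtcgagatctcgcgcttcttggagc
Rplp0: cgggtttcgaggaccgcctggttct
The ETS-type motif CCGGAAGT, read on both strands from 250 bases before to 50 bases after the start, occurred in 10 of the 40 genes (25%) and in 4.31% of all genes. TATAAA on both strands occurred in 5 (12.5%), against 15.7% of all genes, and the YY1 motif in 0, against 0.755%. No match says only that these letters are not in the window.

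Chip-wide values that touch the results were as follows. The authors scaled each chip to a target of 600, but the bright end of the scale was not alike. The 99th percentile of the signals lay between 10271 and 11172 for the 4 chips of 18 months, while the chips of 12 months had 13864 and 14021. All 11 hippocampal neuron markers were tested, none of the cell type markers was listed at 0, and the summed signal of the neuron markers was 59460 to 61743 at 18 months and 75689 and 75893 at 12 months. Of 10 choroid plexus markers, 9 were lower in Tg-18mo-ACEI than in Tg-18mo with a median log2 difference of -2.46, and their summed signals were 27510.0 and 29964 (Tg-18mo), 22692 and 20772 (captopril) and 46199.9 and 45868 (12 months). Oligodendrocyte markers summed to 59952 to 66972 at 18 months and to 86232 and 86039.8 at 12 months, and astrocyte markers to 56703 to 61688 and to 66689 and 67292. Microglia markers summed to 18545 to 20440.4 over all chips. Meningeal fibroblast and vascular markers, of which 5 of 9 were lower and 1 higher with captopril (median -0.85), summed to 9789 and 9936, 5988 and 5890.47, and 10769 and 10669. Such sums weigh the brightest markers most. Counted by gene, markers higher and lower at 12 months than in Tg-18mo (adjusted p under 0.05, as deposited) stand beside 21.5% and 25.9% of all probe sets. Neurons had 4 and 3 of 11 (median 0.10), oligodendrocytes 4 and 3 of 9 (0.09), astrocytes 4 and 2 of 8 (0.13). Microglia had 2 and 6 of 9 (-0.42) and choroid plexus 2 and 4 of 10 (-0.04). Meninges and vessels had 1 and 4 of 9 (-0.09). The 3′ control probe set for 18S ribosomal RNA, the RNA of the small subunit, had signals of 10219 and 11144 (Tg-18mo), 2214 and 1999.95 (captopril) and 2125 and 2121 (12 months). The middle 18S probe set was at 1662 and 1759, 519 and 575, and 894 and 809.8, and the 5′ one at 1779 and 1821, 959 and 944, and 1578 and 1603, so the gap at 12 months was far smaller there. The part of these values in the results for ribosomal protein mRNAs was not tested.

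In untreated mice, signals of ribosomal protein genes were higher at 12 months than at 18 months in the values as deposited. The median signal over the 83 probe sets was 15686 and 16204 in the chips of 12 months and 10439.7 and 11019.6 in those of Tg-18mo. By limma, 66 of 83 probe sets were higher and 3 were lower at an adjusted p under 0.05 (Benjamini-Hochberg), beside 21.5% higher and 25.9% lower over all probe sets tested. The median log2 difference was 0.59 over the members and -0.05 over all probe sets. In RNA of whole tissue, fewer cells of a type and less of the mRNA per cell cannot be told apart. Among the 80 members at 100 or more in all 3 groups, 65 were higher and 2 lower, with a median of 0.59. Counted by the brightest probe set of each gene, 34 of 43 genes were higher and 3 were lower. Of 22 large subunit genes, 18 were higher and 2 lower (median 0.50), and of 21 small subunit genes, 16 were higher and 1 lower (median 0.59). After quantile normalization these were 6 higher and 4 lower (median 0.05) and 4 higher and 0 lower (median 0.07). Over all 43 genes, 10 were then higher (23.3%) and 4 lower (9.3%), beside 22% higher and 21.9% lower over all probe sets. The share of genes higher was thus near that of all probe sets. Chips did not overlap between the 2 groups for 71 probe sets that were higher and 8 that were lower in Tg-12mo, against 33.6% and 40.9% of all probe sets.

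Other bright probe sets were also higher at 12 months. Of the 83 probe sets, 53 had a mean signal of 10000 or more over the 6 chips, and all 53 were higher at 12 months, with a median of 0.61. The 515 other probe sets of this signal class, none annotated with a ribosomal protein, had a median of 0.45, and 90.9% of them were higher. After quantile normalization, which gives all chips the same distribution of signals, the median was 0.08 for the 53 and -0.01 for the 515. Between 3000 and 10000, the 11 members had a median of 0.46 as deposited and 0.30 after quantile normalization, and other probe sets of that class 0.10 and 0.00190. Between 1000 and 3000, the 9 members had a median of -0.07 as deposited, like the other probe sets of that class (-0.07). The 5 members between 300 and 1000 had 0.21, against -0.11. Of the 30 members under 10000, 13 were higher (43.3%) and 3 lower (10%) as deposited, beside 21.5% and 25.9% of all probe sets.

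**Figure D1:**
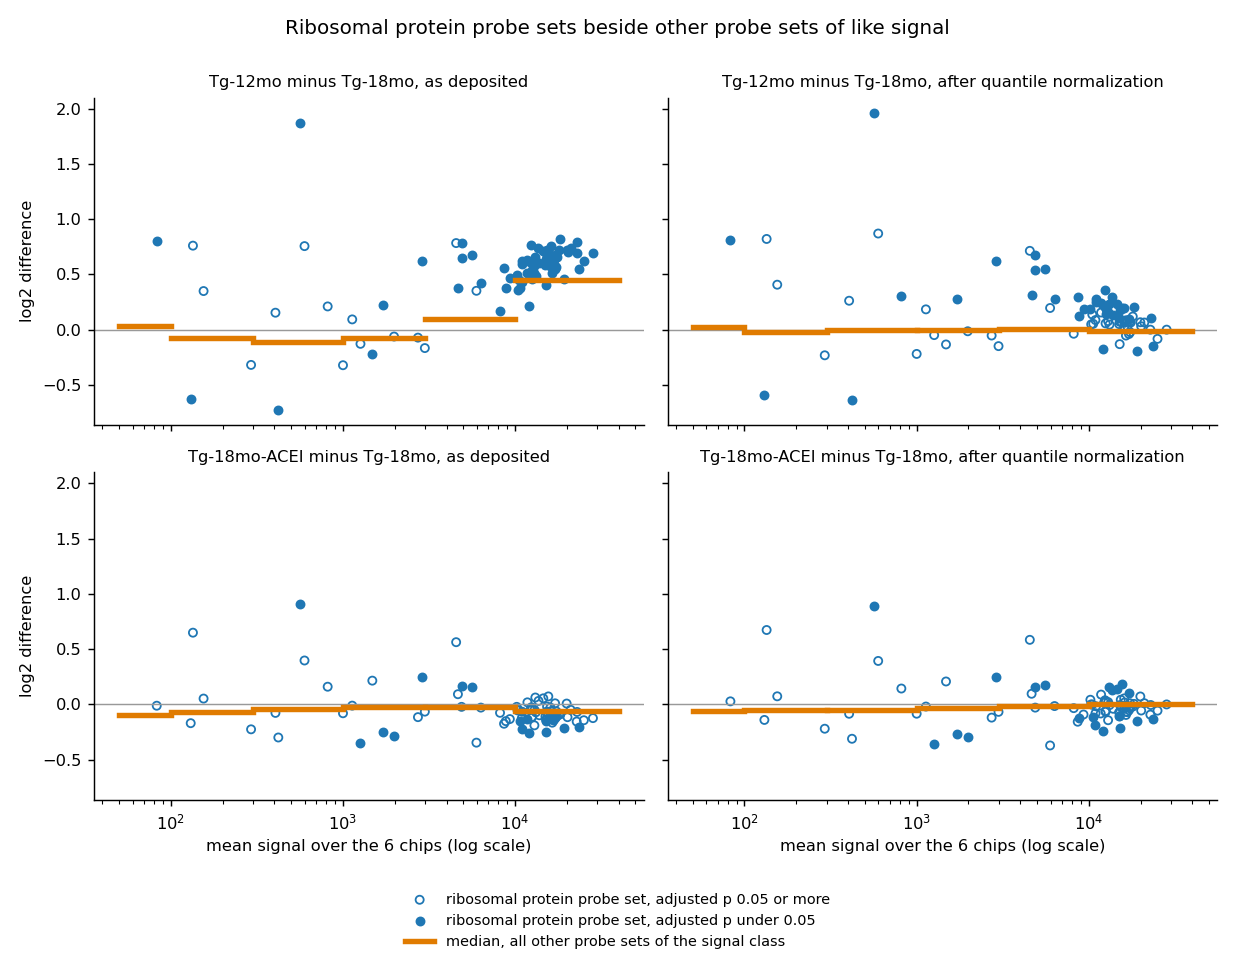
Log2 difference (y axis) against mean signal over the 6 chips (x axis, log scale) for the 83 ribosomal protein probe sets, for 12 against 18 months (top) and captopril against untreated at 18 months (bottom), as deposited (left) and after quantile normalization (right). Filled points had an adjusted p under 0.05, and orange lines are medians of all other probe sets of each signal class; at 12 months the brightest class was raised as a whole (median 0.45 without ribosomal proteins), and after quantile normalization its line lay at -0.01.

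Over all 83 probe sets, quantile normalization left 34 higher and 5 lower at 12 months, with a median of 0.11, beside 22% higher and 21.9% lower over all probe sets. Leaving out 1 chip gave 23 to 37 higher and 2 to 5 lower, the fewest lower without Tg-18mo replicate 2. Of the 66 probe sets higher as deposited, 33 were also higher after quantile normalization. Ribosomal protein probe sets are themselves part of the bright end that quantile normalization makes equal. With the reference distribution built without them, 41 were higher and 5 were lower with a median of 0.14. Over all probe sets, 22.2% were higher and 21.7% lower with this reference. In all 3 sets of values 33 members were higher. The share of all probe sets is not given here for these 33 or for cyclic loess. Cyclic loess, which fits the difference between chips along the signal scale, gave 64 higher and a median of 0.33, and 0.18 for the 515 other probe sets of 10000 or more, against 0.34 for the 53 members. The direction of the median was therefore the same with each scaling, but its size lay between 0.11 and 0.61, the latter with each chip divided by its median. The members made up 2.16% and 2.24% of the summed signal at 18 months, 2.15% and 2.06% with captopril, and 2.99% and 3.03% at 12 months. Their mean percentile rank within a chip, which no scaling of the whole chip can move, was 93.4 and 93.1, 93.3 and 93.4, and 94.0 and 93.9 in the same order.

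**Figure D2:**
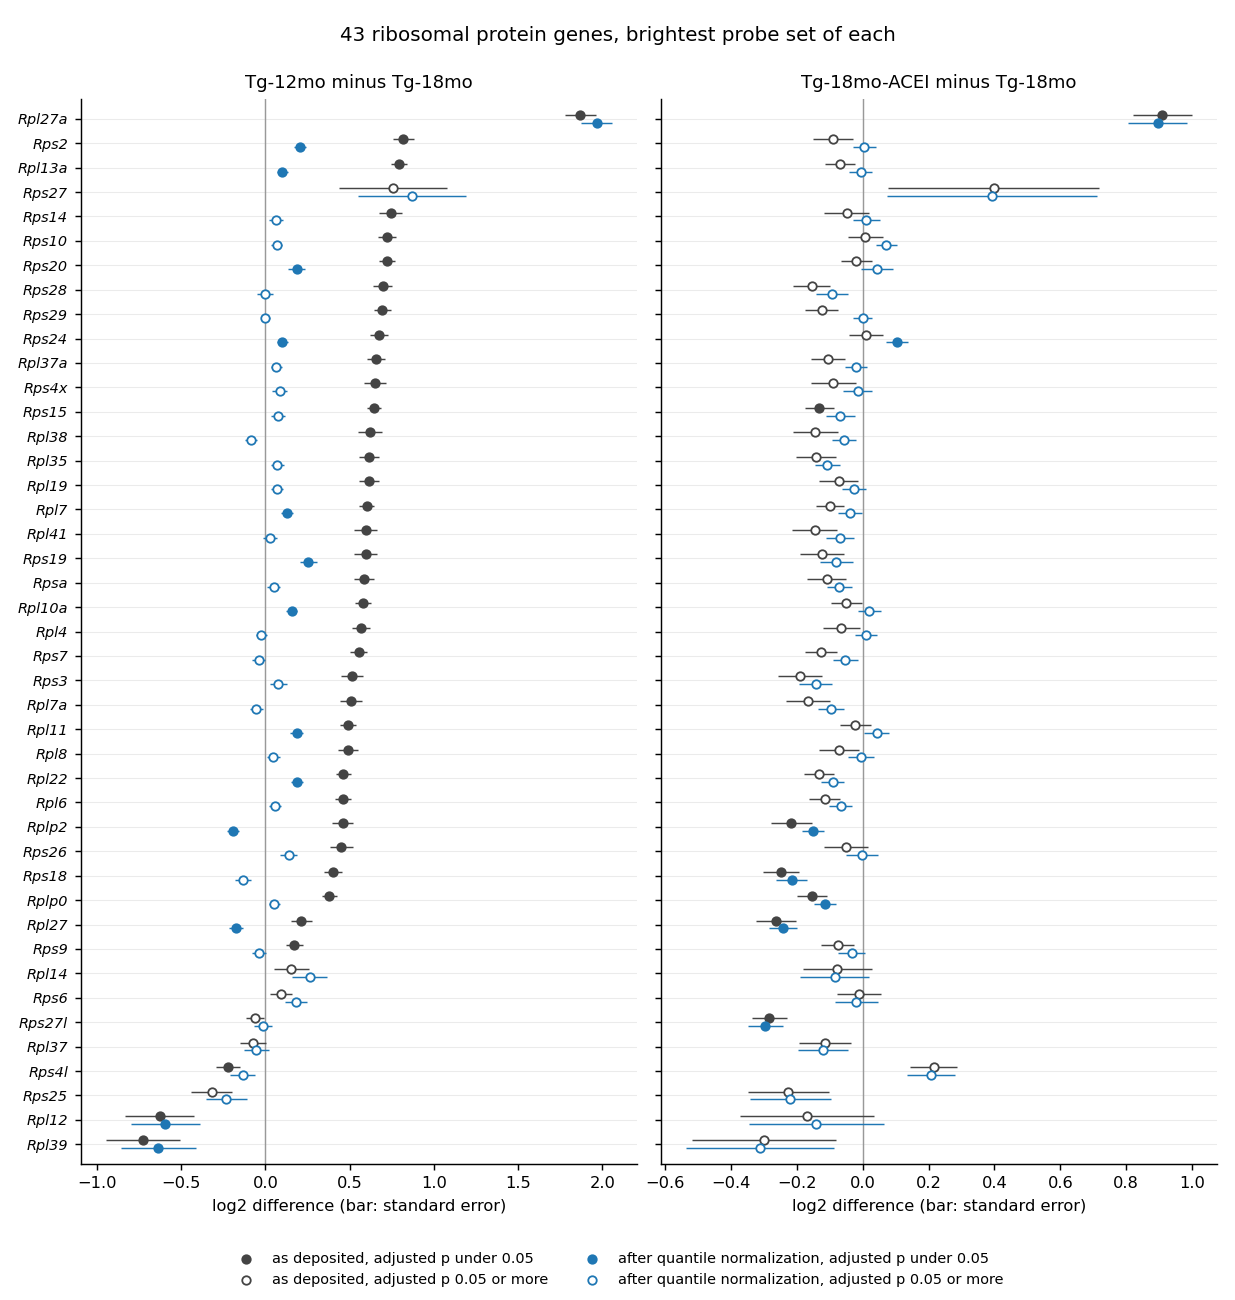
Log2 differences with standard errors (x axis) for the brightest probe set of each of the 43 genes (y axis), for 12 against 18 months (left) and captopril against untreated at 18 months (right). Grey points are values as deposited and blue points values after quantile normalization, filled where the adjusted p was under 0.05. At 12 months 34 genes were higher as deposited, beside 21.5% of all probe sets. After quantile normalization 10 genes (23.3%) were higher, beside 22% of all probe sets. The captopril panel has its own, narrower scale.

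Rpl27a, a large subunit protein, had the largest difference of the 43 genes. Its probe set 1437729_at had signals of 249 and 269 (Tg-18mo), 471 and 502 (captopril) and 941 and 949 (12 months). The 3 groups did not overlap, with the captopril-treated mice between both untreated groups. The log2 difference of Tg-12mo from Tg-18mo was 1.87 ± 0.09 (SE, adjusted p = 5.8e-06) and 1.97 after quantile normalization. It was the single member with a difference of at least 2-fold between these groups. The other probe set of Rpl27a was under the limit, with signals of 7.11 to 58.4, so no second probe set measured this difference. The mean signal of 1437729_at over the 6 chips, 564, was low for this family. It lay at percentile 73.6 of all probe sets, while the median signal of the members was 9729 to 16204 per chip.

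Rps2, Rps3, Rps19, Rpsa, Rps4x and Rps28 are small subunit genes whose brightest probe sets were higher at 12 months as deposited. Rps2, which lines the path of the mRNA into the small subunit, had signals of 14118 and 15549 (Tg-18mo), 14354 and 13516 (captopril) and 25470.2 and 26814 (12 months). Both Tg-12mo chips were above all chips of 18 months, and the log2 difference from Tg-18mo was 0.82 ± 0.06 (SE, adjusted p = 2.7e-05), or 0.21 after quantile normalization (adjusted p = 0.0022). Rps3, a neighbour at the entry site that also acts in DNA repair, was at 11331 and 12171, 10902 and 9729, and 16263 and 17255. These are of probe set 1435151_a_at, whose difference at 12 months was 0.51 (adjusted p = 0.00038) as deposited and 0.08 (adjusted p = 0.25) after quantile normalization, and 1455600_at differed by 0.21 (adjusted p = 0.06) and by 0.31 (adjusted p = 0.016). Rps19, the gene most often mutated in Diamond-Blackfan anaemia, had signals of 9088 and 10071, 9215 and 8370.2, and 14062 and 14835. The difference was 0.59 (adjusted p = 0.00019) and 0.25 after quantile normalization (adjusted p = 0.0044). Rpsa, at the mRNA exit site and also known as a laminin receptor, differed by 0.58 (adjusted p = 0.00011), or by 0.05 after quantile normalization (adjusted p = 0.31). Rps4x, an X-linked small subunit gene, differed by 0.65 (adjusted p = 0.00012), or by 0.08 (adjusted p = 0.15). Rps28, of the mRNA exit site, had 3 probe sets that differed by 0.65 to 0.72 (each past the threshold) and, after quantile normalization, by 0.00 to 0.12 (none past it).

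Rpl13a, a large subunit protein that is released from the ribosome to silence inflammatory mRNAs, was measured by 4 probe sets. The brightest, 1455485_x_at, was at 18160.4 and 19127 (Tg-18mo), 18001 and 17558 (captopril) and 32241 and 32297 (12 months). The log2 difference at 12 months was 0.79 ± 0.05 (SE, adjusted p = 1.2e-05), and 0.10 after quantile normalization (adjusted p = 0.046). All 4 probe sets were higher at 12 months in both sets of values, from 0.43 to 0.79 as deposited and from 0.10 to 0.62 after quantile normalization. Probe set 1433928_a_at, with signals of 2377 and 2252, 2562 and 2938, and 3740.03 and 3389, kept its difference, at 0.62 in both. Rpl11, which with Rpl5 and 5S RNA forms the particle that binds Mdm2, had signals of 8804 and 9272, 8958 and 8841, and 12922 and 12491. It was higher at 12 months by 0.49 (adjusted p = 7.9e-05), or by 0.19 after quantile normalization (adjusted p = 0.0048). Rpl10a, Rpl11, Rpl13a, Rpl27a, Rps2 and Rps19 were the 6 genes whose tested probe sets were all higher at 12 months as deposited, after quantile normalization, and with the reference built without ribosomal proteins (Rpl10a was chosen after its values were seen). Of these, only Rpl13a had more than 1 tested probe set, so the others show no agreement between probe sets. The share of all genes that pass the same rule is not given here.

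For Rplp2, Rpl4, Rpl38 and Rps18, the sign of the difference at 12 months depended on the scaling. Rplp2, which with Rplp0 and Rplp1 forms the stalk that recruits elongation factors, had signals of 17142 and 18312 (Tg-18mo), 15937 and 14603 (captopril) and 23367 and 25330.0 (12 months). The difference at 12 months was 0.46 (adjusted p = 0.00054) as deposited and -0.19 after quantile normalization (adjusted p = 0.0026). Rpl4, whose extension reaches into the exit tunnel, differed by 0.57 (adjusted p = 9.6e-05) and by -0.02 (adjusted p = 0.59). Rpl38, known for its part in translating Hox mRNAs in the embryo, differed by 0.62 (adjusted p = 0.00017) and by -0.08 (adjusted p = 0.096), and Rps18 1455572_x_at by 0.40 (adjusted p = 0.0005) and by -0.13 (adjusted p = 0.052). The other 2 probe sets of Rps18 were higher in both sets of values. Rpl41, the smallest ribosomal protein, differed by 0.60 (adjusted p = 0.00021) and by 0.03 (adjusted p = 0.63). Rpl22, an RNA-binding protein of the outer surface, had 2 probe sets that were higher in both sets of values and 1448398_s_at, which had signals of 3295 and 3008, 2921 and 3101, and 2904 and 2709.98 (log2 difference -0.17, adjusted p = 0.06). Rps24, mutated in Diamond-Blackfan anaemia, had 4 probe sets, all higher as deposited (0.51 to 0.72), of which 3 were higher after quantile normalization (0.10 to 0.23 over the 4).

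Few genes were lower at 12 months. Rpl39, a short protein of the exit tunnel, had signals of 402 and 660.0 (Tg-18mo), 435 and 403 (captopril) and 355 and 273 (12 months). Its log2 difference was -0.73 ± 0.22 (SE, adjusted p = 0.025), and -0.63 after quantile normalization (adjusted p = 0.049), and the Tg-18mo chips were far apart. Rpl12, at the base of the P stalk, had signals of 171 and 139, 141 and 133, and 95.6 and 104, near the lower limit of the test. Its difference was -0.63 (adjusted p = 0.033), and -0.59 after quantile normalization (adjusted p = 0.045). Rps4l, a minor paralog of Rps4x, had signals of 1483 and 1458, 1713 and 1702, and 1354 and 1177. It was lower at 12 months than in Tg-18mo by a log2 difference of -0.22 (adjusted p = 0.035), or -0.13 after quantile normalization (adjusted p = 0.17). The calls of Rpl39, Rpl12 and Rps4l at 12 months each rested on single chips. Rpl39 lost its call without Tg-18mo replicate 2 (-0.37, adjusted p = 0.15) or Tg-12mo replicate 2 (-0.54, adjusted p = 0.13), Rpl12 without any chip other than Tg-12mo replicate 2 (adjusted p = 0.0533 to 0.207), and Rps4l without any chip other than Tg-12mo replicate 1 (adjusted p = 0.055 to 0.165). Rps6, the substrate of the S6 kinases downstream of mTOR, had signals of 1145 and 1075, 1123 and 1081, and 1220.2 and 1148 on probe set 1416142_at. It differed by 0.09 (adjusted p = 0.28), or by 0.18 after quantile normalization (adjusted p = 0.052). Rps25, required by some viral internal ribosome entry sites, differed by -0.32 (adjusted p = 0.063), Rpl14 by 0.15 (adjusted p = 0.26) and Rps27 by 0.76 (adjusted p = 0.083), the last with chips of 532 and 354, 418 and 781, and 581 and 924. For Rps27 the untreated groups did not overlap, the captopril chips overlapped with both, and chips of each group lay far apart.

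**Figure D3:**
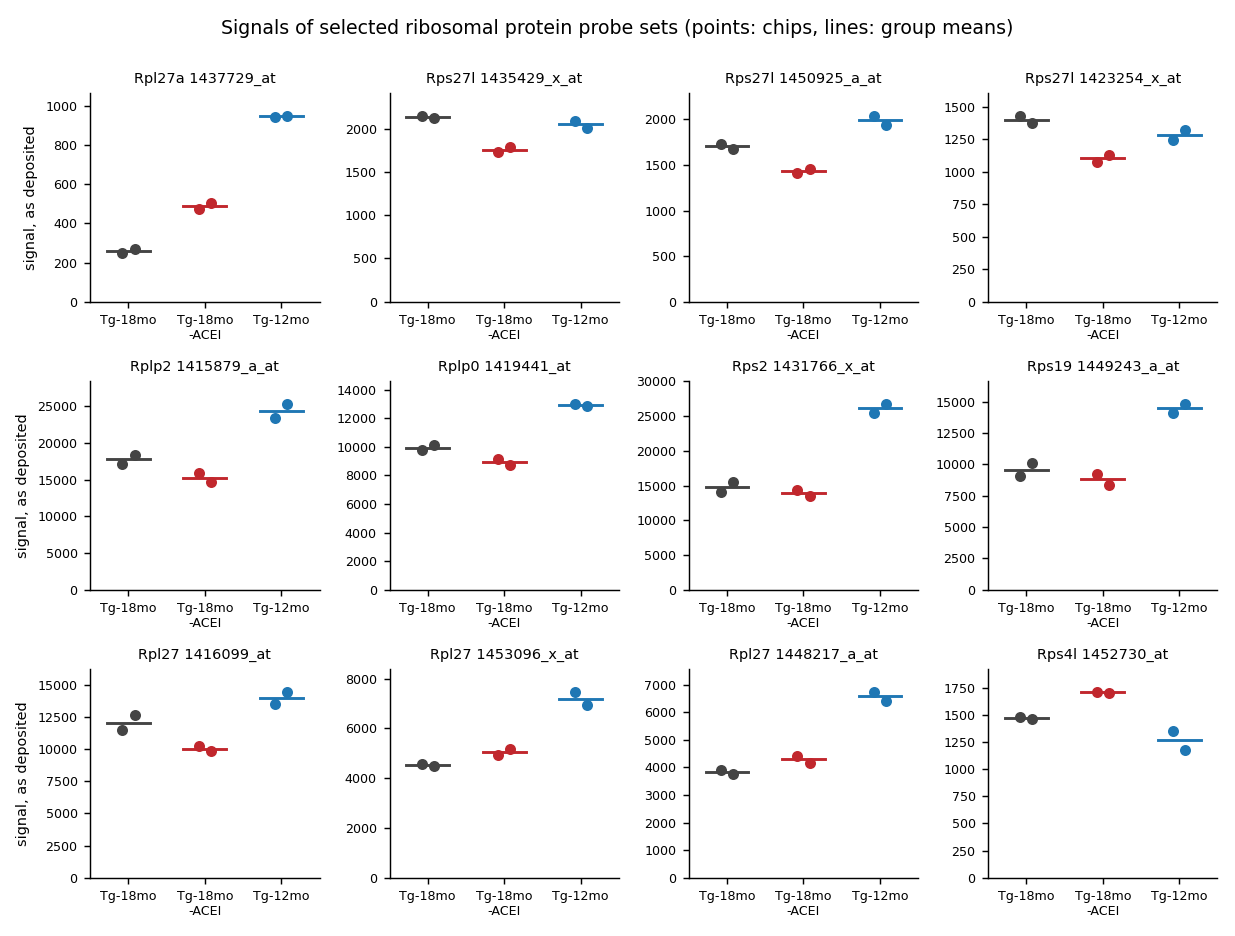
Signals as deposited (y axis, linear from 0) of 12 ribosomal protein probe sets in the 3 groups (x axis). Points are the 2 chips of a group and lines are group means; the 3 probe sets of Rps27l were lowest in Tg-18mo-ACEI, Rpl27a lay between both untreated groups there, and the 3 probe sets of Rpl27 did not order the groups alike.

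Captopril treatment was set against no treatment at 18 months to ask which transcripts differed after 6 months of the inhibitor. Ribosomal protein genes differed little as a group. By limma, 4 of 83 probe sets were higher and 12 were lower in Tg-18mo-ACEI, beside 15.9% higher and 17.7% lower over all probe sets. The median log2 difference was -0.08, against -0.04 over all probe sets and -0.06 over the 515 other probe sets of 10000 or more. After quantile normalization 9 were higher and 11 were lower with a median of -0.02, against 16.3% and 18.2% of all probe sets. Without either Tg-18mo chip (replicate 1 or 2) these counts were 3 and 6, and without captopril replicate 1 or 2 they were 5 and 12 or 4 and 8. The members' quartiles lay at -0.14 and -0.02 as deposited, and those of all probe sets at -0.24 and 0.19. By the brightest probe set, 1 of 43 genes was higher and 6 were lower. Chips of the 2 groups overlapped for 46 of 83 probe sets, and of the others 8 were higher and 29 were lower with captopril, against 31.1% and 40.3% of all probe sets.

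Rps27l, a paralog of Rps27 known as a p53 target, was lower with captopril on each of its 3 probe sets. Probe set 1435429_x_at had signals of 2149.7 and 2125 (Tg-18mo), 1724 and 1791 (captopril) and 2093 and 2003 (12 months). Probe set 1423254_x_at was at 1434 and 1373, 1076 and 1133, and 1244 and 1325, and 1450925_a_at at 1736 and 1679, 1410.1 and 1454, and 2043 and 1938. On all 3, both captopril chips were below all 4 untreated chips. The log2 differences from Tg-18mo were -0.28 (adjusted p = 0.0046), -0.35 (adjusted p = 0.0043) and -0.25 (adjusted p = 0.0096), and -0.29, -0.36 and -0.27 after quantile normalization. From Tg-12mo they were -0.22, -0.22 and -0.47, all past the threshold, but 1435429_x_at was not past it without Tg-18mo-ACEI replicate 1 (-0.19, adjusted p = 0.0679) or Tg-12mo replicate 1 (-0.19, adjusted p = 0.0501). Between the untreated groups 1450925_a_at was higher at 12 months by 0.22 (adjusted p = 0.012), while 1435429_x_at and 1423254_x_at differed by -0.06 (adjusted p = 0.36) and -0.13 (adjusted p = 0.13). The 3 probe sets measure the same gene in the same RNA and are not independent.

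The stalk proteins Rplp0 and Rplp2 were also lower with captopril. Rplp0 had signals of 9748 and 10139.9 (Tg-18mo), 9126 and 8757 (captopril) and 13029.9 and 12851 (12 months). The log2 difference from Tg-18mo was -0.15 ± 0.05 (SE, adjusted p = 0.033), and -0.11 after quantile normalization (adjusted p = 0.03). Rplp2, whose signals are given above, differed by -0.22 ± 0.06 (SE, adjusted p = 0.03), and by -0.15 after quantile normalization (adjusted p = 0.01). These differences were small. Without Tg-18mo replicate 2, the adjusted p was 0.177 for Rplp0 and 0.169 for Rplp2, and without Tg-18mo-ACEI replicate 2 it was 0.164 and 0.18. Rps18, in the head of the small subunit, was lower on 1455572_x_at (-0.25, adjusted p = 0.0095), with signals of 14295 and 14357, 12169.5 and 11982, and 17989 and 19890.2, while its probe sets 1448739_x_at and 1435712_a_at differed by -0.04 (adjusted p = 0.62) and -0.15 (adjusted p = 0.055). Without replicate 2 of Tg-18mo or of Tg-18mo-ACEI the adjusted p of 1455572_x_at was 0.0512 and 0.0562. Rplp0 was past the threshold only with all 6 chips.

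Rpl27a, with 1 tested probe set, was the 1 gene called higher with captopril on every tested probe set in all 3 sets of values. Its difference from Tg-18mo was 0.91 ± 0.09 (SE, adjusted p = 0.00019), and 0.90 after quantile normalization. Against Tg-12mo the captopril group was lower, by a log2 difference of -0.96 (adjusted p = 1.0e-04). Rpl13a was higher with captopril on 1 of its 4 probe sets, 1433928_a_at, by 0.25 (adjusted p = 0.039). Rps4l differed by 0.22 (adjusted p = 0.0504), Rps27 by 0.40 (adjusted p = 0.37), Rps25 by -0.23 (adjusted p = 0.19) and Rpl39 by -0.30 (adjusted p = 0.33). Rps24 1436064_x_at, with signals of 13663 and 14787, 14617 and 14017, and 22856 and 22464, differed by 0.01 (adjusted p = 0.9) as deposited and by 0.10 after quantile normalization (adjusted p = 0.045).

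Probe sets of Rpl27 passed the test in opposite directions as deposited, and those of Rpl35 after quantile normalization. Rpl27, a large subunit protein mutated in Diamond-Blackfan anaemia, was at 11475 and 12673 in Tg-18mo and 10219 and 9884 in Tg-18mo-ACEI on 1416099_at, a log2 difference of -0.26 (adjusted p = 0.011, or 0.0795 and 0.0715 without replicate 2 of Tg-18mo or of Tg-18mo-ACEI). On 1453096_x_at it was at 4560.4 and 4469 against 4924 and 5169, and on 1448217_a_at at 3911 and 3744 against 4415 and 4162, both 0.16 higher with captopril (adjusted p = 0.048 and 0.043). At 12 months all 3 were higher as deposited, by 0.21 (not past the threshold when Tg-18mo replicate 1 was left out, adjusted p = 0.126, or Tg-12mo replicate 2, adjusted p = 0.121), 0.67 and 0.78, and after quantile normalization 1416099_at was lower (-0.17) and the others higher by 0.55 and 0.67. The direction of Rpl27 therefore differed between its probe sets. Rpl35, which lies beside the exit of the tunnel, had 5 probe sets from -0.22 to 0.03 with captopril as deposited, 2 of them lower. After quantile normalization 2 were lower and 1436840_x_at, at 10918 and 11300.00, 11715 and 11005, and 18821 and 18261, was higher by 0.13 (adjusted p = 0.019). At 12 months all 5 were higher than in Tg-18mo as deposited (0.43 to 0.74), and 3 of 5 after quantile normalization.

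Probe sets of Rps9 and Rps29, chosen after their values were seen, show how the result for 12 months depends on the probe set. Rps9 was higher by 0.64 on 1434624_x_at, with signals of 4207 and 4049 in Tg-18mo and 6829 and 6092 in Tg-12mo, and by 0.17 on 1433689_s_at, with 7864 and 8079.98 against 8730.4 and 9225. After quantile normalization the first differed by 0.54 (adjusted p = 0.00028) and the second by -0.04 (adjusted p = 0.48). Rps29 1438859_x_at, at 23815 and 24248 in Tg-18mo and 39032 and 38659 in Tg-12mo, held rank 2 among all probe sets on every chip. A probe set with the same rank on all chips has the same value on all of them after quantile normalization, so its difference there was 0 by construction and carries no information on the gene.

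The third comparison set captopril-treated mice beside untreated ones of the age at which treatment began. It shares its Tg-12mo chips with the age comparison and its captopril chips with the captopril comparison. As deposited, 68 of 83 probe sets were lower and 1 was higher in Tg-18mo-ACEI, with a median log2 difference of -0.66, beside 17.7% lower and 22.3% higher over all probe sets. Chips did not overlap for 71 probe sets that were lower and 4 that were higher, against 31.4% and 39.6% of all. After quantile normalization 37 were lower and 1 was higher with a median of -0.14, where 18% of all were lower and 18.1% higher. The probe set that was higher in both was that of Rps4l, at 0.44 (adjusted p = 0.0018) and 0.34 (adjusted p = 0.0082). Rps2 differed by -0.91 and by -0.20 after quantile normalization (adjusted p = 0.0033), Rps19 by -0.72 and -0.33 (adjusted p = 0.0017), Rps3 by -0.70 and -0.22 (adjusted p = 0.011), and Rpl22 by -0.60 and -0.28 (adjusted p = 0.00066). In 11 genes (Rpl6 and Rpl10a among them named after their values were seen), Rpl10a, Rpl11, Rpl13a, Rpl27a, Rpl35, Rpl6, Rplp0, Rps19, Rps2, Rps27l and Rpsa, all tested probe sets were lower in Tg-18mo-ACEI than in Tg-12mo in all 3 sets of values. Only Rpl13a, Rpl35 and Rps27l among them had more than 1 tested probe set, and the share of all genes that pass this rule is not given here.

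Genes with and without the C and T run at the start had close medians. At 12 months, the median log2 difference from Tg-18mo was 0.54 over the 18 genes with a C and T run and 0.55 over the 19 tested genes with a matched start and no run. After quantile normalization these medians were 0.07 and 0.06. With captopril they were -0.07 and -0.13 as deposited. These medians are a description, with no test. The run was read around annotated starts, which may not be where the mRNA begins. The split may therefore not separate genes with and without the tract, and no conclusion is drawn from it.

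Other genes of translation were taken from lists chosen by function, with the brightest probe set of each gene. Their counts at 12 months stand beside 21.5% higher and 25.9% lower over all probe sets as deposited and 22% and 21.9% after quantile normalization, and those with captopril beside 15.9% and 17.7% as deposited. Of the initiation factors, which bring the subunits to the mRNA, 18 of 33 were higher and 3 lower at 12 months than in Tg-18mo (median 0.23), and 11 higher and 3 lower after quantile normalization (median 0.08). With captopril 5 of 33 were higher and 5 lower than in Tg-18mo (median -0.06), so the captopril values of the single genes below do not stand for the list. Eif3a, the largest subunit of eIF3, had signals of 4792 and 4965 (Tg-18mo), 7205 and 7485 (captopril) and 9553 and 8445 (12 months). It was higher at 12 months by 0.88 and with captopril by 0.59, and by 0.71 and 0.67 after quantile normalization, all past the threshold. Pabpc1, the cytoplasmic poly(A)-binding protein, whose mRNA also carries a terminal oligopyrimidine tract, was higher by 0.77 and by 0.38, or 0.56 and 0.45. Eif3b, the scaffold of eIF3, was lower in both comparisons (-0.65 and -0.60), with signals of 2417 and 2382, 1643 and 1534, and 1493 and 1568. Of the elongation and release factors, 3 of 9 were higher and 2 lower at 12 months, and 0 were higher and 4 lower after quantile normalization, and Eef1a1, the factor that brings aminoacyl-tRNA to the ribosome, differed by 0.64 as deposited (adjusted p = 0.00011) and by -0.04 (adjusted p = 0.36).

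Ribosome biogenesis factors build the subunits in the nucleolus. At 12 months, 6 of 29 were higher and 12 lower than in Tg-18mo, with a median of -0.21, and 6 and 11 after quantile normalization with a median of -0.12. Fbl, the methyltransferase fibrillarin, had signals of 2466 and 2507 (Tg-18mo), 2057 and 1980.4 (captopril) and 1526 and 1736 (12 months), a difference of -0.61 at 12 months and of -0.30 with captopril. Ubtf, the activator of RNA polymerase I, differed by -0.62 and by -0.38. Npm1, a nucleolar chaperone, was higher, by 0.63 and by 0.19. Captopril-treated mice had 2 of 29 higher and 9 lower than Tg-18mo, with a median of -0.16. Mitochondrial ribosomal proteins, encoded in the nucleus for the ribosome of mitochondria, had 26 of 76 higher and 13 lower at 12 months (median 0.11), and 32 higher and 9 lower after quantile normalization (median 0.15). Mrpl33 had the largest rise after quantile normalization, 1.18, with signals of 583 and 510.4 in Tg-18mo and 1292 and 1033 in Tg-12mo. With captopril 4 of 76 were higher and 21 lower than in Tg-18mo (median -0.07), with Mrps18a lower (-0.59) and Mrpl9 higher (0.52). The medians of these lists stand beside -0.05 (12 months) and -0.04 (captopril) over all probe sets as deposited. The single genes named from these lists were not picked by a fixed rule and do not stand for them.

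**Figure D4:**
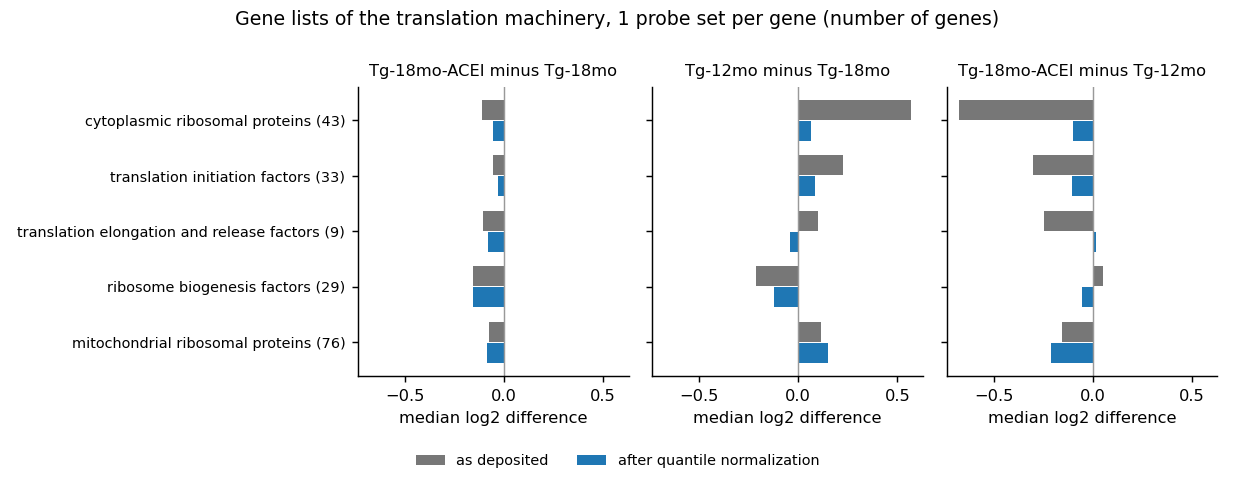
Median log2 difference (x axis) of 5 gene lists of the translation machinery (y axis, number of genes tested in parentheses) in the 3 comparisons, with 1 probe set per gene. Grey bars are values as deposited and blue bars values after quantile normalization; cytoplasmic ribosomal proteins had the largest median at 12 months as deposited (0.57) and 0.06 after quantile normalization.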

How the data were processed

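Hippocampal RNA pooled from 4 mice was hybridised to each of 6 chips, 2 per group. The intensity values are linear signals, 1 per probe set and chip, that the authors made with GCOS and scaled to a target of 600 before they deposited them; the mean after trimming 2% at each end was 600. Detection calls, raw images and RMA values were not used here. Of 45101 probe sets, 64 controls were left out. Probe sets with a mean signal of 100 or more in at least 1 group (23262) were tested on the log2 scale with limma 3.58.1 in R 4.3.3 (3 group means, all 6 chips, eBayes with an intensity trend) and adjusted by Benjamini-Hochberg over all of them. Summaries and figures were made with Python 3.11.15, pandas 2.3.3 and matplotlib 3.10.9. Symbols came from the platform annotation, in which 34945 probe sets carry 1 symbol, 932 several and 9160 none. The test was checked on simulated data. It recovered 27 of 67 planted 1.5-fold changes, 35 of 67 2-fold changes and 62 of 66 4-fold changes, with 3 false calls. Changes of 1.5-fold or 2-fold can therefore be missed. The planted changes were few among the 23262 probe sets and fell at any signal, while far more probe sets were called in the data. These rates therefore do not give the share of changes found among the bright members. Members, lists and tests were chosen with earlier results of these data known. Ribosomal protein genes were named by role, as the 4 largest rises and falls per comparison in both sets of values, and where probe sets passed in opposite directions. Single genes of the other translation lists were not covered by this rule, so they do not stand for their lists. Other scalings, filters, tests, probe set choices, a replicate block and fits without each chip were tried as alternatives. No sample was left out.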

Additional observations from a re-analysis of the deposited data

How the results depend on the processing

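Counts are given as higher and lower at an adjusted p under 0.05. After quantile normalization, captopril against untreated gave 9 higher probe sets and 2 higher genes by the brightest probe set. The same values at 12 months against 18 months gave 34 higher and 5 lower probe sets, a median of 0.11 and 10 higher genes, and captopril against 12 months gave 37 lower probe sets, a median of -0.14 and 17 lower genes. With the quantile reference built without ribosomal proteins (added after seeing the data, as were cyclic loess, the several-symbol set and the set at 100 or more in all groups), captopril gave 9 higher probe sets and 2 higher genes, 12 months gave 41 higher and 5 lower probe sets, a median of 0.14 and 14 higher genes, and captopril against 12 months gave 44 lower probe sets, a median of -0.16 and 22 lower genes. Over all probe sets, this reference gave 16.2% higher with captopril and 22.2% higher and 21.7% lower at 12 months. For captopril against 12 months it gave 18.2% lower. Cyclic loess gave 2 higher genes with captopril, a median of 0.33 and 1 lower gene at 12 months, and a median of -0.37 for captopril against 12 months. These scalings differ from the deposited one by construction at the bright end.

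For captopril against untreated, dividing each chip by its median gave 6 lower probe sets, 2 higher and 3 lower genes, adding 32 to each signal gave 2 higher genes, and a mean of at least 200 gave 2 higher genes. Without a filter there were 1 higher and 6 lower probe sets and 3 lower genes, with only the 2 groups compared 7 lower probe sets and 2 higher genes, and without the intensity trend 1 higher and 4 lower probe sets and 1 lower gene. For 12 months against 18 months, no filter and only the 2 groups compared each gave 1 lower probe set and 1 lower gene. For captopril against 12 months, the fit without the trend gave 2 higher probe sets and 2 higher genes. The methods' t-test with Benjamini-Hochberg adjustment gave 9 higher probe sets and 6 higher genes at 12 months and 0 in every other count, where 10, 63 and 67 probe sets had an unadjusted p under 0.05 in captopril against untreated, 12 against 18 months and captopril against 12 months (limma 26, 74 and 70). At the study's limits (p of at most 0.01 and 2-fold), Rpl27a at 12 months was the 1 member past both, by either test. With the 17 probe sets without a suffix only, captopril gave 1 higher and 2 lower, 12 months 8 higher with a median of 0.35, and captopril against 12 months 8 lower with a median of -0.30. With the several-symbol probe sets added, 21 were lower with captopril, 150 were higher at 12 months, and 2 were higher and 152 lower in captopril against 12 months.

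Leaving out each chip in turn gave medians of 0.54 to 0.61 at 12 months, -0.67 to -0.61 for captopril against 12 months and -0.13 to -0.04 for captopril against untreated. Higher and lower probe sets numbered 63 to 66 and 1 to 2, 1 to 2 and 64 to 68, and 1 to 5 and 4 to 11 in the same order, and genes 32 to 35 and 0 to 2, 1 to 1 and 34 to 35, and 1 to 2 and 1 to 6. The lone chip left in a group was then assumed to vary like the other groups. The call of Rps27l 1435429_x_at for captopril against untreated was kept under all of these except the t-test, while Rplp0 lost its call without any 1 chip (adjusted p 0.0519 to 0.177).

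Replicate numbers showed no pairing of the chips over all probe sets. There the differences between replicate 1 and 2 had correlations of -0.03 (Tg-18mo with Tg-18mo-ACEI), 0.03 (Tg-18mo with Tg-12mo) and -0.05 (Tg-18mo-ACEI with Tg-12mo). Over the member probe sets alone they were -0.80, 0.13 and -0.25. With the replicate block, captopril gave 2 higher and 6 lower probe sets and 3 lower genes, and the block moved no other count as deposited by over 1.5 times. After quantile normalization the block gave 6 higher and 8 lower with captopril, 28 and 3 at 12 months, and 1 and 31 for captopril against 12 months. There, leaving out 1 chip gave 3 to 9 higher and 6 to 12 lower with captopril, 23 to 37 and 2 to 5 at 12 months, and 1 to 2 and 27 to 35 for captopril against 12 months.

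Single genes named by the rule changed sign as follows, and the cause was not tested. Most of the changed values lay near 0, but several deposited ones did not. At 12 minus 18 months these were 0.46 for Rplp2, 0.57 for Rpl4, 0.62 for Rpl38, 0.40 for Rps18 and 0.21 for Rpl27. For captopril minus 12 months they were -0.67, -0.63, -0.76 and -0.66 for Rplp2, Rpl4, Rpl38 and Rps24. Other genes also changed sign, such as Rpl7a at 12 minus 18 months (0.51 as deposited, -0.05 after quantile normalization). After quantile normalization, captopril minus untreated was 0.042 for Rpl11, 0.011 for Rpl4 and 0.0051 for Rps2, 12 minus 18 months was -0.19 for Rplp2, -0.023 for Rpl4, -0.083 for Rpl38, -0.17 for Rpl27 and -0.13 for Rps18, and captopril minus 12 months was 0.041 for Rplp2, 0.034 for Rpl4, 0.027 for Rpl38 and 0.0047 for Rps24. With the reference without ribosomal proteins the captopril values were 0.040 for Rpl11, 0.0054 for Rpl4 and 0.00032 for Rps2, those at 12 months -0.19 for Rplp2, -0.10 for Rpl38, -0.15 for Rpl27, -0.093 for Rps18 and -0.0054 for Rps28, and captopril minus 12 months 0.022 for Rplp2 and 0.020 for Rpl38. Cyclic loess gave -0.028 for Rpl27 at 12 months. Chip medians gave 0.0085 for Rpl11 and 0.019 for Rps6 with captopril. Leaving out each chip in turn gave, for captopril minus untreated, -0.059 to 0.015 for Rpl11, -0.66 to 0.058 for Rpl39, -0.13 to 0.0014 for Rpl4, -0.047 to 0.067 for Rps24, -0.053 to 0.85 for Rps27, -0.056 to 0.035 for Rps6, and for captopril minus 12 months -0.81 to 0.093 for Rps27. The number of chips limits the precision, and no detection call or background level was used, so low signals such as those of Rpl12, Rpl27a, Rpl39 and Rps27 may hold a larger share of background.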
